A study of Mus musculus with 80 samples.

Results

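Proteins with EF-hands, the helix-loop-helix motif that holds a calcium ion, were followed at the transcript level in single medium spiny neurons (MSN) of the mouse striatum. The genes were Hpca, Hpcal4, Ncald, Necab1, Necab2, Cabp1, Calm2, Calm3 and Calb2, taken by name from the list of genes with a value in each cell. Of these 9 names, 8 were matched among 25160 listed genes. Calb2, which encodes the buffer calretinin, was not matched and is not analysed here.

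The cDNA of single cells, 1 per sample, came from neurons sorted out of the adult dorsomedial striatum, and the values were TPM, an expression unit adjusted for gene length and for the total of each cell. All cells came from mice of 8 to 12 weeks that were heterozygous for both BAC reporters, Drd1a-TdTomato and Drd2-EGFP, so the 2 groups shared both alleles and were told apart by fluorescence alone. A total of 40 cells were labelled Drd1 and 40 were labelled Drd2. The paper obtained usable data from most but not all of the cells it sequenced. The labels do not mark which cells those were, and every labelled cell was kept here. The study used 3 animals in 3 experiments, the labels tie no cell to an animal, and a group was therefore taken as 1 sample with no test. D1 MSN are the 40 Drd1 cells, and D2 MSN are the 38 Drd2 cells left after 2 cholinergic interneurons (Chat above 100 TPM) were set apart, since cholinergic interneurons also express Drd2.

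Calcium enters striatal neurons through channels and glutamate receptors and is read by 2 broad kinds of EF-hand protein. Sensors such as calmodulin, hippocalcin and the CaBP proteins alter their shape on binding calcium and act on kinases, channels and membranes, whereas buffers such as calretinin and calbindin chiefly hold the ion. D1 MSN form the direct and D2 MSN the indirect pathway out of the striatum. NECAB2 is known to bind the adenosine receptor Adora2a and the metabotropic glutamate receptor mGluR5, and hippocalcin is a calcium sensor of principal neurons that is abundant in striatum and hippocampus.

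The number of genes above 1 TPM ran from 648 to 8657 in D1 MSN (median 5722) and from 1215 to 7942 in D2 MSN (median 4928). The depth behind a TPM value is unknown, and a gene without signal in a cell is called listed at 0. Plate FACS051_5 held 18 D1 and 16 D2 MSN, plate FACS086_4 held 21 and 19, and plate FACS086_9 held 1 and 3. All 8 MSN markers looked at, among them Ppp1r1b, which encodes DARPP-32, passed 1 TPM in 50% or more of the cells in both subtypes. The sum of 5 D1 MSN markers had a median of 1253 TPM in D1 and 1.84 TPM in D2 MSN, but reached 1218 TPM in a D2 MSN. The sum of 5 D2 MSN markers had a median of 11.9 TPM in D1 and 10848 TPM in D2 MSN, but reached 3713 TPM in a D1 MSN. Penk weighed most in this sum, averaging 17827 TPM in D2 MSN of FACS051_5, where Gpr6 averaged 239 TPM. In D2 MSN 4 of these 5 markers passed 1 TPM in 50% or more of the cells. Drd2 was listed at 0 in the 3 D2 MSN of FACS086_9. A few cells stood apart. The D1 cell in well D04 of FACS051_5 had 989 TPM of Gja1 and 1334 TPM of Slc1a3, both astrocyte genes, and 2.03 TPM of Drd1. The D1 cell in well B02 of FACS086_4 had 648 genes above 1 TPM, and the D2 cell in well A12 of FACS086_9 had 1215.

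The calmodulin genes Calm2 and Calm3 are shown first as sequence, because their transcripts differ while their product does not. In the GENCODE M21 annotation (GRCm38) each encodes 149 residues counted from the start methionine, identical at all 149 positions, whereas their coding bases were identical at 82.6% of positions. The first calcium-binding loop, codons 21 to 32, lies in exon 3 of each gene, and the capitals mark the 7 of 36 bases that differ between them.
Calm2: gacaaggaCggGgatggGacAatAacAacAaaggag
Calm3: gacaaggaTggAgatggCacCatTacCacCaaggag
The loops stand at chr17:87435873-87435908 for Calm2 and at chr7:16917667-16917702 for Calm3, both on the minus strand. The longest run of coding bases that they shared was 17 bases. How reads that match several genes were shared out in the TPM is not given in the sources used here.

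The levels of the 8 genes spanned more than 3 orders of magnitude in the MSN. By mean TPM the order in D1 MSN was Calm2 with 4349 TPM, Hpca with 1038 TPM, Calm3 with 191 TPM, Necab2 with 125 TPM, Hpcal4 with 42.9 TPM, Cabp1 with 35.0 TPM, Necab1 with 10.9 TPM and Ncald with 1.56 TPM. In D2 MSN the same order held except that Necab1, with 78.5 TPM, stood between Necab2 and Hpcal4. The ranges of the middle 50% of cells did not overlap between Calm2 and Hpca, nor between Hpca and Calm3, in either subtype. From Calm3 downwards the ranges of neighbours in the order overlapped. A level above 1 TPM was reached by 7 of the 8 genes, all but Ncald, in 50% or more of the 78 MSN, beside 13.7% of all listed genes.

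**Figure D1:**
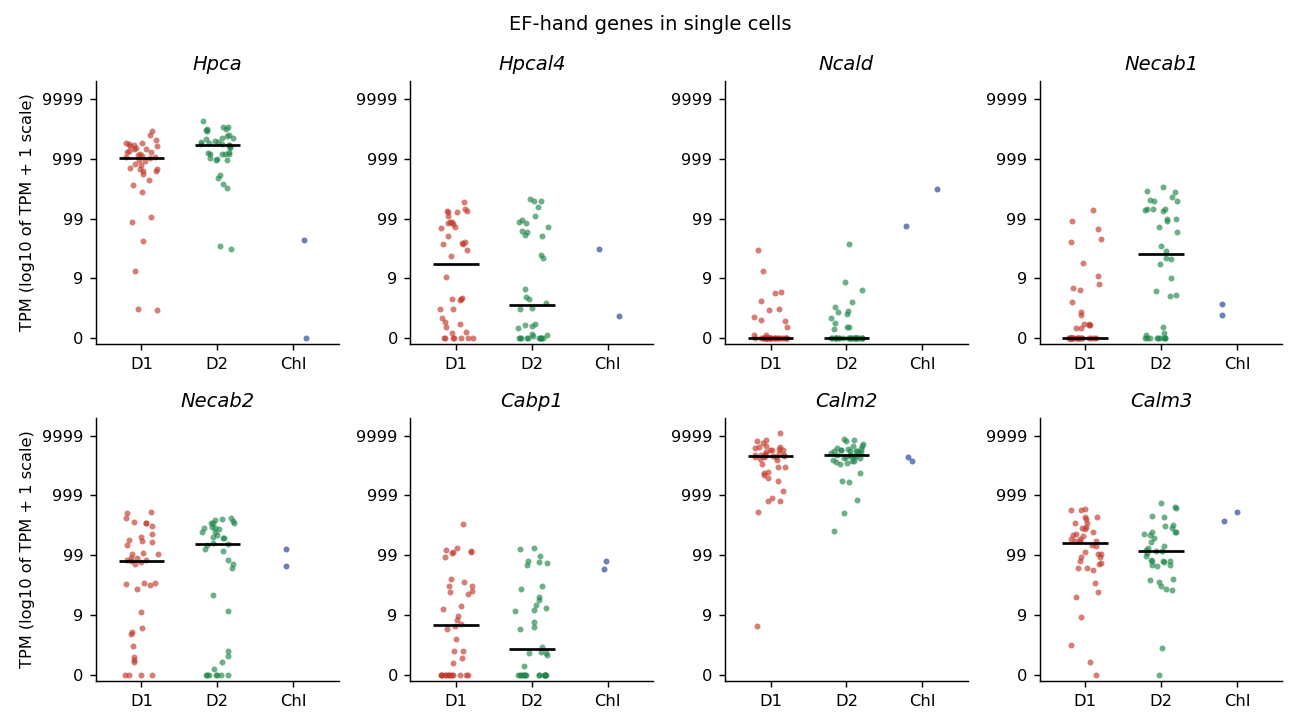
TPM of each of the 8 genes in every cell (vertical axis, log10 of TPM + 1 scale with TPM written at the ticks) for 40 D1 MSN, 38 D2 MSN and 2 cholinergic interneurons (ChI); points are cells and bars are medians. Calm2 and Hpca are high in nearly all MSN, Necab1 has a median of 0 in D1 and 24.2 TPM in D2 MSN, and Ncald in both interneurons lies above all MSN.

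Differences between the subtypes were taken as the log2 ratio of D1 to D2 MSN of the mean level with 1 TPM added, so a negative value means a higher mean in D2 MSN. A gene was counted as past the fold where this value was above 1 in size over all plates and had the same sign on both large plates. By that count 0 of the 8 genes were past the fold toward D1 MSN, beside 12.9% of 14631 genes averaging 1 TPM or more and above 0 in both subtypes, and 1 of the 8, Necab1, toward D2 MSN, beside 8.22% of those genes. All 8 genes passed this filter on low values. The median difference of the 8 genes was -0.09 and that of the 14631 genes 0.08.

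Necab1, a neuronal calcium-binding protein with an EF-hand and a monooxygenase-like domain, differed most of the 8 genes. The gene lies at chr4:14952245-15149794 on the minus strand (GRCm38, as for all positions here). In D1 MSN it ran from 0 to 138 TPM with a median of 0 TPM, and in D2 MSN from 0 to 335 TPM with a median of 24.2 TPM. The ranges overlapped, and 10 of 38 D2 MSN lay above the highest D1 MSN. More than 1 TPM was found in 13 of 40 D1 MSN, 32.5% (95% exact interval 18.6 to 49.1%), and in 26 of 38 D2 MSN, 68.4% (51.3 to 82.5%); like all intervals here these are Clopper-Pearson and cover counting error only. Its mean was 10.9 TPM (SD over cells 28.2, n = 40) in D1 MSN and 78.5 TPM (SD 96.7, n = 38) in D2 MSN, 7.23 times as high. The log2 difference was -2.75 over all plates, -2.77 on FACS051_5 and -3.29 on FACS086_4. Only 185 of the 14631 genes had a lower value. In D1 MSN 1 cell carried much of the mean: without the cell with 138 TPM, in well B07 of FACS051_5, the difference was -3.21. On the small plate the single D1 MSN had 90.9 TPM and the 3 D2 MSN 0.215, 27.6 and 97.6 TPM, so the D1 value lay within the D2 values there. The number of genes found moved with Necab1: the 12 MSN with fewer than 3414 genes all lacked it at 1 TPM, and Spearman's rho between them was 0.20 over D1 and 0.55 over D2 MSN. The median number of genes found was 5109 for D1 and 5923 for D2 MSN on FACS051_5 and 5730.0 for D1 and 4617 for D2 MSN on FACS086_4. Its part in the difference was not tested.

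**Figure D2:**
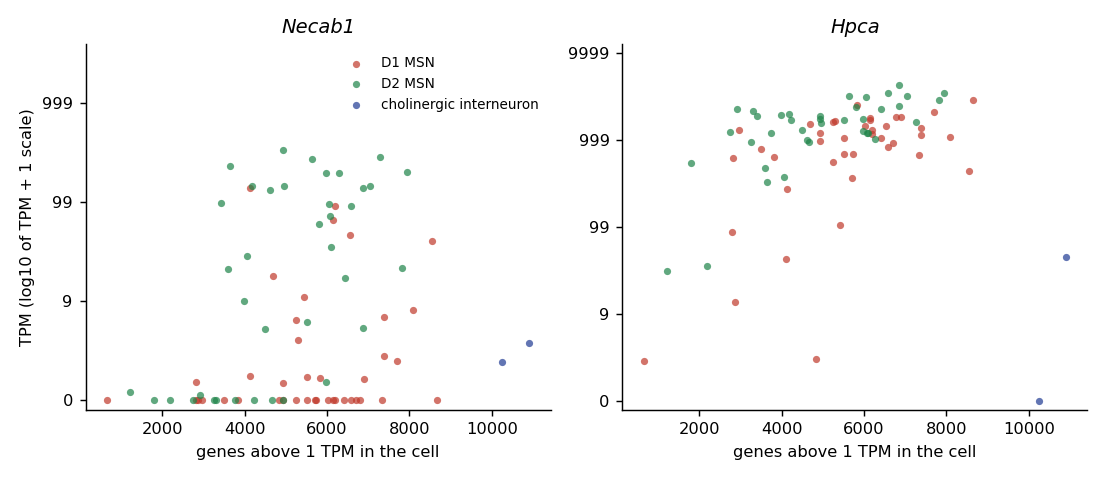
Necab1 (left) and Hpca (right), TPM per cell on a log10 of TPM + 1 scale, against the number of genes above 1 TPM in that cell; points are 40 D1 MSN, 38 D2 MSN and 2 cholinergic interneurons. D2 MSN with more than 100 TPM of Necab1 number 12 against 1 D1 MSN. The interneurons, with 10912 and 10251 genes, have 43.6 and 0 TPM of Hpca. Their Necab1 values, 2.77 and 1.42 TPM, are above 41 and 39 of the 78 MSN.

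Necab2, its paralog, was found more widely than Necab1 and differed less between the subtypes. Its gene lies at chr8:119446719-119472640 on the plus strand. It ran from 0 to 526 TPM in D1 MSN with a median of 80.0 TPM, and from 0 to 425 TPM in D2 MSN with a median of 152 TPM. The mean was 158 TPM (SD 143) for D2 against 125 TPM (SD 148) for D1 MSN, a log2 difference of -0.33. Within the plates the values were -0.66 on FACS051_5 and -0.18 on FACS086_4. Without FACS051_5 the difference was 0.002. The medians in D1 and D2 MSN were 92.6 and 222 TPM on FACS051_5. On FACS086_4 they were 76.3 and 61.5 TPM, so their direction was not shared by the plates. The 2 NECAB proteins shared 161 identical residues, 41.4% of the longer protein. Both transcripts were above 1 TPM in 12 D1 and 22 D2 MSN, Necab2 without Necab1 in 21 D1 and 7 D2 MSN, Necab1 without Necab2 in 1 D1 and 4 D2 MSN, and neither in 6 D1 and 5 D2 MSN. Necab1 exceeded Necab2 in 3 D1 and 10 D2 MSN. Necab3, the other member of the family, was above 1 TPM in 1 D1 and 2 D2 MSN.

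The partners known for NECAB2 were set beside it. Adora2a, a marker of D2 MSN, had means of 91.9 TPM in D2 MSN and 0.108 TPM in D1 MSN. Grm5, which encodes mGluR5, had means of 166 TPM in D2 MSN and 146 TPM in D1 MSN, with a log2 difference of -0.18. The sign for Grm5 differed between the large plates, with -0.77 on FACS051_5 and 0.37 on FACS086_4. Necab2 was above 1 TPM in 33 of 40 D1 MSN, where Adora2a was above 1 TPM in 1 cell.

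Hpca, which encodes hippocalcin, was found in every MSN. The gene lies at chr4:129111570-129122036 on the minus strand. In D1 MSN it ran from 1.91 to 2866 TPM with a median of 1049.9 TPM, and in D2 MSN from 29.7 to 4235 TPM with a median of 1700.0 TPM. The ranges overlapped over most of their length, 28 of 38 D2 MSN were above the D1 median, and 6 of 40 D1 MSN were above the D2 median. The mean was 1038 TPM (SD 697, n = 40) in D1 MSN and 1727 TPM (SD 1008, n = 38) in D2 MSN, 1.66 times as high. The log2 difference was -0.73 over all plates, -0.88 on FACS051_5 and -0.72 on FACS086_4, short of the limit of 1. Of the 14631 genes, 18.1% had a lower value. The lowest D1 values, 1.91 and 2.08 TPM, belonged to the cells in B02 of FACS086_4 and D04 of FACS051_5 that stood apart, and the lowest D2 value, 29.7 TPM, to A12 of FACS086_9. Without D04 the difference was -0.70, and without the cells under 2000 genes it was -0.76. Taken as a difference of mean log2 values, which weights low cells more, it was -1.12 and past the limit.

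**Figure D3:**
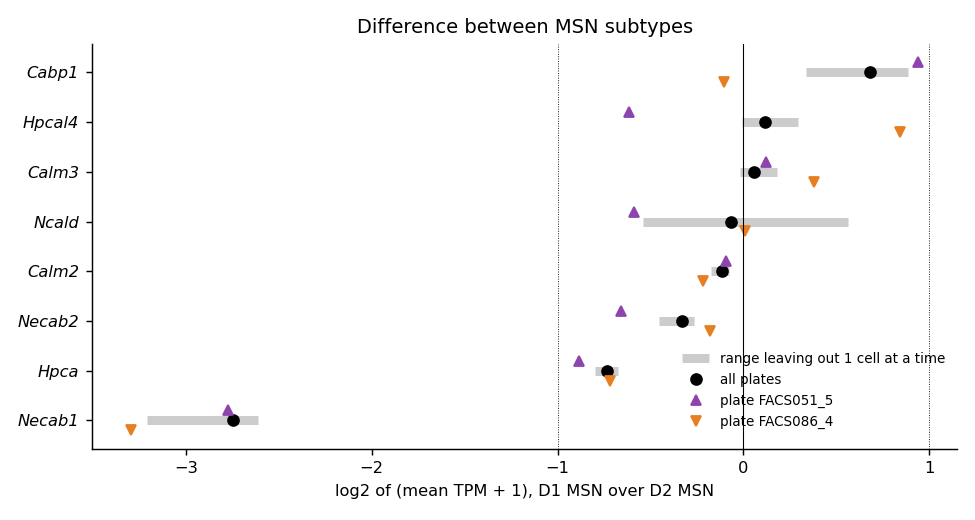
Difference between the subtypes for each gene (horizontal axis, log2 of mean TPM + 1 in D1 MSN over D2 MSN) over all plates and within each large plate; grey bars span the values with 1 cell left out at a time, and dotted lines mark -1 and 1. Necab1 lies below -2 on both plates, Hpca between -0.88 and -0.72, and Hpcal4 and Cabp1 have opposite signs on the plates.

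Hpcal4, a close relative of Vsnl1 with 89.5% of residues in common, was present in part of the cells. Its gene lies at chr4:123183227-123194701 on the plus strand. It ran from 0 to 186 TPM in D1 MSN with a median of 16.2 TPM, and from 0 to 215 TPM in D2 MSN with a median of 2.56 TPM. More than 1 TPM was found in 28 of 40 D1 MSN, 70.0% (53.5 to 83.4%), and in 21 of 38 D2 MSN, 55.3% (38.3 to 71.4%), and these intervals overlap. The log2 difference of 0.12 was made of -0.61 on FACS051_5 and 0.84 on FACS086_4, so no direction was shared by the plates. On FACS086_4 the mean was 41.1 TPM in D1 and 22.4 TPM in D2 MSN, whereas on FACS051_5 it was 43.6 and 67.2 TPM.

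Ncald, which encodes neurocalcin delta, was the least abundant of the 8 genes in MSN. The gene lies at chr15:37366175-37792570 on the minus strand. Its median was 0 TPM in both subtypes, and its highest values were 29.4 TPM in D1 and 37.0 TPM in D2 MSN. More than 1 TPM was found in 9 of 40 D1 MSN and 9 of 38 D2 MSN. The log2 difference was -0.07 and rested on single cells, since leaving out the D1 cell in D11 of FACS086_4 made it -0.54 and leaving out the D2 cell in A12 of FACS086_4 made it 0.56. Hippocalcin and neurocalcin delta were identical at 88.1% of residues, while their mean levels in D1 MSN were 1038 and 1.56 TPM.

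Cabp1 encodes a calmodulin-like protein (caldendrin and shorter forms) that acts on calcium channels and inositol trisphosphate receptors, from a gene at chr5:115168689-115194381 on the minus strand. It ran from 0 to 336 TPM in D1 MSN with a median of 5.85 TPM, and from 0 to 129.7 TPM in D2 MSN with a median of 1.70 TPM. More than 1 TPM was found in 25 of 40 D1 MSN, 62.5% (45.8 to 77.3%), and in 23 of 38 D2 MSN, 60.5% (43.4 to 76.0%). The log2 difference was 0.68 over all plates, 0.94 on FACS051_5 and -0.10 on FACS086_4. The cell with 336 TPM, in A07 of FACS051_5, supplied much of it, and without that cell the difference was 0.34. All 4 cells of the small plate were listed at 0. The paper lists Cabp1 among its top D1 MSN-specific genes, from a DESeq2 comparison of the subtypes on counts. The TPM means here are an unlike measure and were not tested. They showed no direction shared by the large plates. Itpr1, an inositol trisphosphate receptor, averaged 92.0 TPM in D1 and 93.7 TPM in D2 MSN, and Cacna1c, an L-type calcium channel, 13.5 and 8.33 TPM. On FACS051_5 and FACS086_4 the log2 difference was -0.99 and 0.48 for Itpr1 and 0.51 and 1.82 for Cacna1c.

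Calm2 was the most abundant of the 8 genes and ranked 16 of all listed genes by mean TPM over the MSN. It ran from 5.62 to 11188 TPM in D1 MSN with a median of 4582 TPM, and from 254 to 8635 TPM in D2 MSN with a median of 4748 TPM. The groups overlapped almost fully, with a log2 difference of -0.11 over all plates, -0.09 on FACS051_5 and -0.22 on FACS086_4. Calm3 ran from 0 to 588 TPM in D1 MSN with a median of 159.7 TPM, and from 0 to 740 TPM in D2 MSN with a median of 116 TPM. Its log2 difference was 0.06 over all plates, 0.12 on FACS051_5 and 0.38 on FACS086_4. Without FACS051_5 it was -0.10 and without FACS086_4 it was -0.07, so the sign was not stable. Calm3 was above 1 TPM in 38 of 40 D1 and 37 of 38 D2 MSN.

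Since Calm2 and Calm3 yield the same protein, their summed TPM and the part of each in it were also taken. The sum had a median of 4826 TPM in D1 and 5313 TPM in D2 MSN. Calm3 made up a median of 3.98% of it in D1 MSN, with a range of 0 to 34.1%, and 2.77% in D2 MSN, with a range of 0 to 29.7%. Calm2 was the higher of the pair in all 40 D1 and all 38 D2 MSN. On FACS051_5 the median part of Calm3 was 4.48% in D1 and 3.93% in D2 MSN. On FACS086_4 it was 3.51% in D1 MSN and lower in D2 MSN. In the interneurons in A08 and B02 it was 9.03% and 10.9%.

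**Figure D4:**
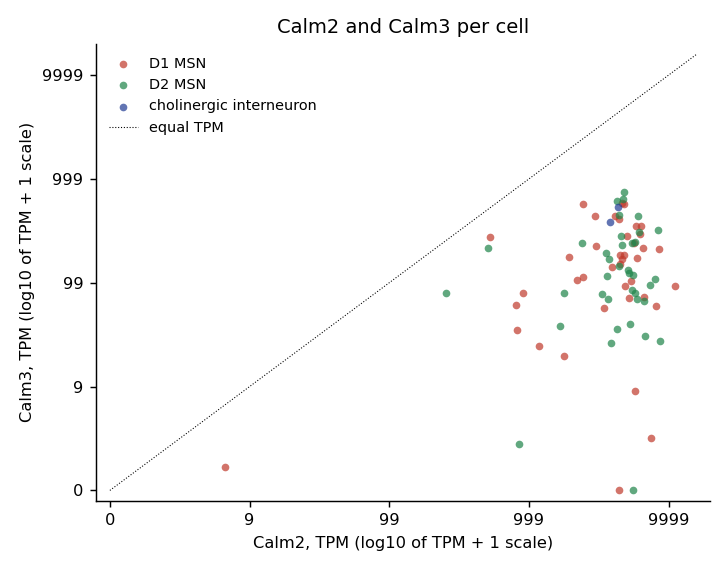
Calm2 (horizontal axis) against Calm3 (vertical axis) in each of 40 D1 MSN, 38 D2 MSN and 2 cholinergic interneurons, both in TPM on a log10 of TPM + 1 scale; each point is a cell and the dotted line marks equal TPM. All 78 MSN and both interneurons lie below the line, and the subtypes overlap.

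In the cholinergic interneurons in wells A08 and B02 of FACS051_5, which were both labelled Drd2, several of the 8 genes lay at the edge of the MSN range or beyond it. Hpca was at 43.6 TPM in A08 and listed at 0 in B02, below 72 and all 78 of the MSN respectively. Ncald was at 309 TPM in A08 and 75.7 TPM in B02, above all 78 MSN in both. Necab1 was at 2.77 and 1.42 TPM, within the MSN range and above 41 and 39 of the 78 MSN. Cabp1 was at 57.8 and 79.0 TPM, above 63 and 66 of the 78 MSN. Necab2 (66.1 and 125.7 TPM) and Calm2 (3829 and 4363 TPM) lay within the middle of the MSN, and Calm3 (380.0 and 533 TPM) was above 67 and 72 of them. With 2 cells, both from 1 plate and with more genes found than any MSN (10912 and 10251), how far the number of genes found bears on these values was not tested.

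The other EF-hand and calmodulin-binding genes and 4 binding partners were listed for 53 of 65 names. Of these 53, 7 were past the fold toward D1 MSN (Vsnl1, Hpcal1, S100a10, S100b, Cib1, Nucb1 and Micu2) and 3 toward D2 MSN (S100a11, Stim1 and Adora2a). Beside these stand the 12.9% and 8.22% of the 14631 genes given above. The sets are unlike, because the filter on low values was not applied to the 53 genes. The median difference of the 53 genes was 0.00. Several of these genes rested on few cells. S100a11 was above 1 TPM in 1 D1 and 2 D2 MSN, S100a10 in 3 and 1, and Cib1 in 3 and 2. Without the cell D04 of FACS051_5 the numbers of genes past the fold were 5 and 4, S100a10 and S100b dropping out and S100a16 coming in. The shares of the genes passing the filter were then 12.5% and 8.57%. The cell D04 had 328 TPM of S100b, an astrocyte protein, 831 TPM of S100a1 and 574 TPM of S100a16, the highest value of each in D1 MSN.

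Among the neuronal calcium sensors, Kcnip2, a subunit of A-type potassium channels, was the most abundant after Hpca, with means of 114 TPM in D1 and 116 TPM in D2 MSN. Kcnip4 averaged 23.6 and 45.2 TPM and Ncs1 14.9 and 12.4 TPM in D1 and D2 MSN. For Ncs1 the log2 difference was -0.15 on FACS051_5 and 0.47 on FACS086_4. Kcnip3 was above 1 TPM in 17 D1 and 16 D2 MSN, with a log2 difference of -0.72. Vsnl1 (visinin-like 1) and Hpcal1, the closest relative of Hpca with 93.8% of residues in common, were present in few cells and mostly in D1 MSN. Vsnl1 was above 1 TPM in 14 of 40 D1 and 4 of 38 D2 MSN, with means of 12.2 and 1.05 TPM. Hpcal1 was above 1 TPM in 11 of 40 D1 and 2 of 38 D2 MSN, with means of 15.4 and 0.186 TPM. The D1 means rested largely on few cells. The 2 highest D1 values were 205 and 131 TPM for Vsnl1 and 245 and 213 TPM for Hpcal1. In the interneurons Hpcal1 was at 208 and 538 TPM. Both genes are named here after their values were seen.

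Caln1, a calmodulin-like protein of neurons, averaged 99.2 TPM in D1 and 165 TPM in D2 MSN, with a log2 difference of -0.73. The buffer Calb1, calbindin, was above 1 TPM in all 78 MSN, with means of 346 TPM for D2 and 255 TPM for D1 MSN. Its log2 difference was -0.93 on FACS051_5 and 0.00 on FACS086_4. Pvalb, parvalbumin, was above 1 TPM in 1 D1 and 0 D2 MSN.

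The S100 proteins averaging 10 TPM or more were S100a16, S100a1, S100a6 and S100b. The first 3 were above 1 TPM in at most 5 of 78 MSN each. S100b was above 1 TPM in 74 MSN with medians of 4.63 TPM in D1 and 5.30 TPM in D2 MSN. Ppp3r1, the regulatory subunit of calcineurin, averaged 388 TPM in D1 and 303 TPM in D2 MSN, and Tesc, tescalcin, 262 and 172 TPM. Cetn3 averaged 106 and 140.4 TPM, Sdf4 90.3 and 72.6 TPM, Pdcd6 63.4 and 87.4 TPM, Sri 83.3 and 64.0 TPM and Cetn2 69.9 and 69.4 TPM. On FACS051_5 and FACS086_4 the log2 difference had opposite signs for Ppp3r1 (-0.31 and 0.88) and Sri (-0.88 and 0.81). The same held for Cetn3 (-1.10 and 0.08) and Cetn2 (0.57 and -0.79). Tesc, Sdf4 and Pdcd6 had the same sign on both plates.

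Of the proteins that bind calmodulin and set its availability, Pcp4, Nrgn, Pcp4l1 and Gap43 were all abundant. Pcp4 averaged 3875 TPM in D1 and 2385 TPM in D2 MSN, with a log2 difference of 0.70 over all plates, 0.73 on FACS051_5 and 0.55 on FACS086_4. Nrgn, neurogranin, averaged 1897 and 2051 TPM, Pcp4l1 528 and 756 TPM and Gap43 385 and 410.1 TPM. For Nrgn the log2 difference was 0.08 on FACS051_5 and -0.64 on FACS086_4. In the interneurons Nrgn was at 23.5 and 1.45 TPM and Pcp4l1 at 2.20 and 0.66 TPM, whereas Gap43 was at 1102 and 769.8 TPM.

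**Figure D5:**
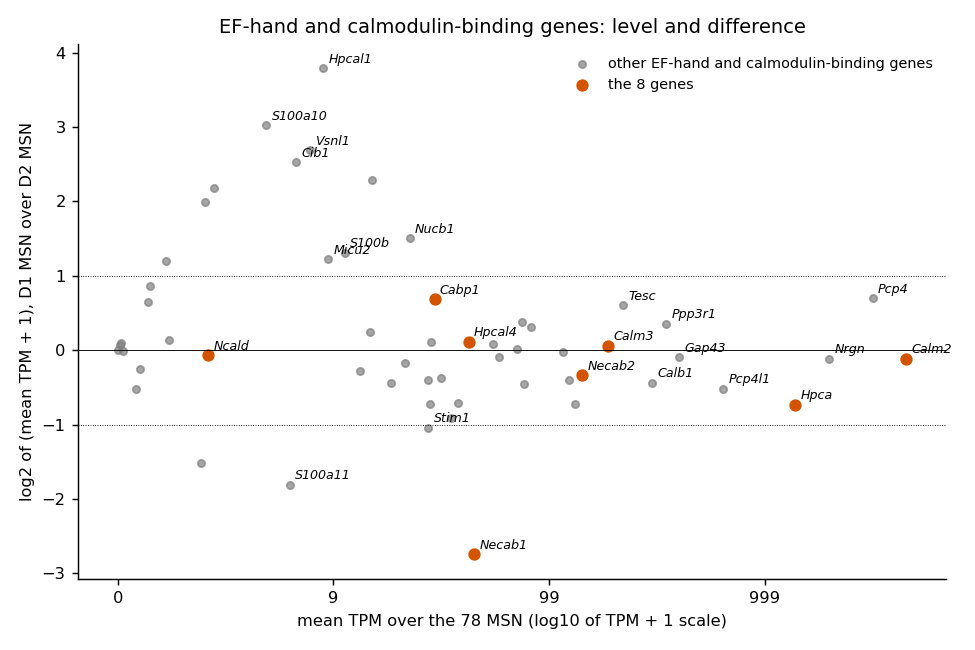
Mean TPM over the 78 MSN (horizontal axis, log10 of TPM + 1 scale) against the log2 difference of D1 over D2 MSN (vertical axis) for the 8 genes (orange) and the other listed EF-hand and calmodulin-binding genes (grey); dotted lines mark -1 and 1. Names are given for the 8 genes, for those past the fold on both plates and for those above 200 TPM; Necab1 has the lowest value and Hpcal1 the highest.

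For the 7 genes found above 1 TPM in 25% or more of the MSN, the genes most alike across the 78 MSN were sought among the 3448 genes found above 1 TPM in 50% or more of these cells, by Spearman's rho of TPM. These cells share plates and differ in the number of genes found, with which the 8 genes had a rho between 0.21 (Calm3) and 0.49 (Hpcal4), and rho is a description over cells of 1 sample per group. The 3 genes nearest to Hpca were Rbfox1 (rho 0.64), Ppp1r1b (0.62) and Rasd2 (0.62). Among the 3 nearest to Necab2 were Eno2 (0.64) and Hpca (0.59), and among the 3 nearest to Calm2 were Ywhaz (0.72) and Ubb (0.70). Hpcal4 was nearest to Fkbp1a (0.63), Enc1 (0.59) and Neto2 (0.58), and Cabp1 to Mapk8ip2 (0.52), Sod1 (0.47) and Camkk2 (0.46). Calm3 was nearest to Dnlz, Rpl39 and Prkce (each 0.44), and among the 3 nearest to Necab1 were Zwint (0.50) and Ubb (0.48). Between Hpca and Necab2 rho was 0.52 within D1 and 0.68 within D2 MSN. Between Calm2 and Calm3 it was 0.08.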

How the data were processed

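The authors deposited 1 table of TPM values, with genes in rows and cells in columns. Per the labels and the methods, cDNA was made with the SMARTer Ultra Low Input kit and sequenced on a MiSeq; the submitters' processing notes name STAR 2.5.0, featureCounts 1.5.1 and mm10/GRCm38. How TPM were made is not given in the sources used here, and values ran down to 1.75e-09, so the table holds no whole reads and no count test was made. TPM per cell summed to 506588 to 958040 over the listed genes. Groups came from the labels. The 9 genes, the gene lists and the Chat limit were chosen with earlier results of these data known. Means, SD over cells, shares above 1 TPM with Clopper-Pearson intervals, and log2 differences with a pseudocount of 1 TPM were computed for all genes. Of other listed genes, those with a mean of at least 10 TPM were named, at most 8 per list. Positions, coding identity and loops came from GENCODE M21, in which 24024 listed names were found. Results that need a few other genes are not reported here. Of the steps, only the log2 difference was checked, on the values of these MSN put into groups at random with a set of genes raised in the first group. Scripts ran in Python 3.11.15 with Biopython 1.88, scipy 1.17.1, pandas 2.3.3, numpy 2.4.6 and matplotlib 3.10.9.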

Additional observations from a re-analysis of the deposited data

Results flagged for a closer look

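Ncald was above every MSN in both cholinergic interneurons, cells that the comparison of D1 with D2 MSN did not use. It measured 309 TPM in the interneuron in well A08 and 75.7 TPM in the interneuron in well B02 of FACS051_5, against a highest value of 37.0 TPM among the 78 MSN. Both cells came from 1 plate and had more genes above 1 TPM than any MSN, and the part of that difference in the result was not tested.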

How the results depend on the processing

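The log2 differences of Necab1, Hpca, Cabp1 and Calm2 kept their sign in all 14 alternatives, though not their size. The sign changed in 6 of the 14 for Calm3, 3 for Hpcal4, 2 for Ncald and 1 for Necab2. Cabp1 stood at 0.03 without FACS051_5, and within FACS086_4 alone it had the opposite sign (-0.10), so its direction was not shared by the large plates. Calm2 stood at -2.53 with upper-quartile scaling, -0.34 as a difference of mean log2 values and -0.01 without FACS086_4. Necab1 ranged from -3.21 (1 cell left out) to -2.09 (pseudocount of 10 TPM). Necab1 alone was past the fold with other pseudocounts and after rescaling each cell to the same total. It was also alone without FACS086_9, D04 or cells under 2000 genes, and with interneurons kept. In these settings 2.16% (pseudocount of 10 TPM) to 9.67% (0.1 TPM) of the genes passing the low-value filter were past the fold toward D2 MSN. Hpca joined Necab1, making 2 genes, with the difference of mean log2 values (-1.12), beside 1.61% of such genes toward D2 MSN. With upper-quartile scaling 3 genes were past the fold toward D2 MSN, Hpca, Ncald and Necab1, beside 10.8% of the genes passing the filter. There the cell in B02 of FACS086_4 was multiplied by 385, that in A12 of FACS086_9 by 190.5, and Calm3 stood at -3.99. With those scalings and cells under 2000 genes left out, an alternative chosen after seeing the data, 2 genes were past the fold. They were Necab1 and Ncald (-2.87), both toward D2 MSN, beside 10.3% of the genes passing the filter, and Calm3 stood at 0.18. There the D2 cell in A12 of FACS086_4, with the highest Ncald value of the MSN (37.0 TPM), was still multiplied by 18.6. Without FACS051_5 there were 2 genes, Necab1 toward D2 and Hpcal4 (1.09) toward D1 MSN, beside 16.4% and 24.8% of the genes passing the filter. Without FACS086_4 there were 2 genes, Necab1 toward D2 and Cabp1 (1.10) toward D1 MSN, beside 18.9% and 22% of such genes. With a large plate left out, the sign was checked only on the large plate that remained. With interneurons kept, Ncald stood at -2.25. With a limit of 10 TPM, 4 instead of 7 genes were found in at least 50% of the MSN. Scaling moved the median of all genes by less than 0.1. No paired analysis was possible because replicate numbers only name single cells and no test was made; the values within each large plate stand in the report.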
